A study of Mus musculus with 7 samples.

Results

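The loci of 10 genes of ITAM costimulatory signaling were examined for binding of PU.1 and MITF in myeloid precursors, in cells after 36 h of RANKL and in osteoclasts. The genes were the receptors Oscar and Trem2, the adaptors Tyrobp and Fcer1g, the kinases Syk, Btk and Tec, the scaffolds Blnk and Lcp2, and the phospholipase Plcg2. They are 10 of the 22367 protein-coding genes of the annotation and were chosen by name, and a peak was assigned to a gene when its center lay in the gene or within 50 kb of either end on mm9. By this rule the 10 loci held 181 of 76243 PU.1 peaks in MPs, 163 of 71941 at 36 h and 173 of 77072 in OCs. They held 26 of 5413, 18 of 3540 and 20 of 4443 MITF peaks in the same order.

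An immunoreceptor tyrosine-based activation motif (ITAM) is a short stretch in the tail of an adaptor that Src family kinases phosphorylate when the paired receptor is engaged. OSCAR signals through the Fc receptor γ chain, the product of Fcer1g, and TREM2 signals through DAP12, the product of Tyrobp. The phosphorylated motif recruits SYK, which with BTK and TEC and the scaffolds BLNK and SLP-76 (Lcp2) activates PLCγ2, and the calcium released downstream activates NFATc1, the transcription factor that drives osteoclast differentiation. RANKL supplies the other signal, so the pathway is called costimulatory.

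ChIP-Seq sequences the chromatin fragments that an antibody recovers, each read counts as a tag, and a peak is a place rich in tags. Bone marrow cells of mice of the strain given as C57BLACK6, aged 4 to 6 weeks, were grown for 3 days in 50 ng/ml CSF1, and the cells given CSF1 only are the MPs. The groups labeled 36 h and OC received 100 ng/ml RANKL as well, for 36 and 72 h. PU.1 and MITF were each precipitated with 5 µg antibody in the 3 conditions, and non-specific IgG in MPs only, which gave 7 libraries with 1 library per condition. The labels do not give the number of mice behind a library, and RNA was not measured in these files, so cell type markers could not be checked and nothing here is a level of expression. Without replicates, the errors below cover counting of tags in these libraries, and a test compares 2 libraries and not 2 conditions.

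The value of a peak is its Peak Score, the tags in the peak scaled to a common library size. The implied library sizes were 5860000 to 10270000 tags for PU.1 and MITF, if the default scale of HOMER applied. The lowest peak of the 6 lists held 6 to 10 tags, and a site missing from a list had no peak above that limit, which does not show that the factor was absent. In the IgG list 1 peak lay at the 10 loci, in the Syk locus with 7 tags, and it overlapped no PU.1 or MITF peak there. The 36 h lists differ from the others in peak width. PU.1 36 h peaks had a median width of 190 bp against 150 bp in the other PU.1 lists. In the MITF 36 h list 1417 peaks were 150 bp wide, with scores from 9.7 to 46.7, and the other 2123 were 168 to 1387 bp wide, with scores of at least 19.5. All MITF MP and MITF OC peaks were 150 bp wide.

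Sequences of 5 sites, on the plus strand of mm9, are printed to show what the precipitated DNA contains. The first is the site with the highest MITF score of the 10 loci in every condition, and the next is the only MITF site whose score passed the test described further on, which was chosen after its values had been seen. The others are the highest PU.1 sites within 3 kb of a start of Fcer1g, Oscar and Tec. Capitals mark GAGGAA on either strand, a sequence that PU.1 binds. A match on the minus strand reads TTCCTC. The shorter core GGAA, shared by ETS factors, is not marked by itself. Capitals also mark CANNTG, the general E-box of helix-loop-helix factors, of which MITF is one, and the 2 motifs can share a base. An E-box match is not specific to MITF.
Syk, 10.5 kb upstream, chr13:52667974-52668124: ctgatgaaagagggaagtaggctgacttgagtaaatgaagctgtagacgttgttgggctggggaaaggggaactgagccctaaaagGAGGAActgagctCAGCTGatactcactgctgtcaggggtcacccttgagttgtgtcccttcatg
Lcp2, 15.4 kb upstream, chr11:33931457-33931607: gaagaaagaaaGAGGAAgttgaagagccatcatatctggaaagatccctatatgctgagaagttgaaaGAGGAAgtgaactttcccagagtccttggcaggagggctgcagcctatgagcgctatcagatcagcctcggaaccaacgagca
Fcer1g, 362 bp upstream, chr1:173164783-173164933: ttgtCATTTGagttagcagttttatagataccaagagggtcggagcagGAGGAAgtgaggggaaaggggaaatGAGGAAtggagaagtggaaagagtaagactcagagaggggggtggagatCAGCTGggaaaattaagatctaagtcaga
Oscar, 1.9 kb inside the gene, chr7:3565781-3565931: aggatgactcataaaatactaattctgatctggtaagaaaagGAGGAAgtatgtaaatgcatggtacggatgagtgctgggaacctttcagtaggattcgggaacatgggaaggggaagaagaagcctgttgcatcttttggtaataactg
Tec, 0.3 kb upstream, chr5:73259961-73260111: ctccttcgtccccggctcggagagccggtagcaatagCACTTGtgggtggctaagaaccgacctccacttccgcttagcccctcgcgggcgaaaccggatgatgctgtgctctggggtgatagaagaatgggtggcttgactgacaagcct

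The Syk sequence holds 1 GAGGAA and 1 E-box, the Lcp2 sequence holds 2 GAGGAA and no E-box, and the Fcer1g sequence holds 2 of each. The Oscar sequence holds 1 GAGGAA, and the Tec sequence an E-box without GAGGAA. A match of letters is a description and does not show which base a factor contacted.

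PU.1 peaks were found at all 10 genes in all 3 conditions, and most loci held more of them than most genes of the genome. The median number per locus was 19.5 in MPs, 15 at 36 h and 18 in OCs, against 6 over all 22367 protein-coding genes in each list. Long genes have wider windows, and per 100 kb of window the medians were 11.3, 10.8 and 12.1 against 4.72, 4.64 and 4.85. The loci ranged from 6 PU.1 peaks at Oscar at 36 h to 29 at Tec in MPs and at 36 h. Fcer1g had the densest window, with 22, 20 and 19 peaks in MPs, at 36 h and in OCs, a density in MPs that 0.197% of all protein-coding genes reach. Btk had 10 peaks in each list, a number that 29.4% to 31.9% of all genes reach, so its count was not unusual.

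The numbers moved little between conditions at most loci. Tec had 29, 29 and 28 PU.1 peaks, Plcg2 23, 21 and 21, and Lcp2 19, 20 and 21. Trem2 had 21 in MPs, 14 at 36 h and 17 in OCs, and Syk had 20, 15 and 21. Tyrobp had 11, 13 and 12, Blnk 16, 15 and 13, and Oscar 10, 6 and 11. At Trem2, Syk and Oscar the number at 36 h was below both other conditions. The whole PU.1 list at 36 h was also the shortest, with 71941 peaks against 76243 in MPs and 77072 in OCs. Its peaks were wider, and the part of peak calling in these lower numbers was not tested.

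**Figure D1:**
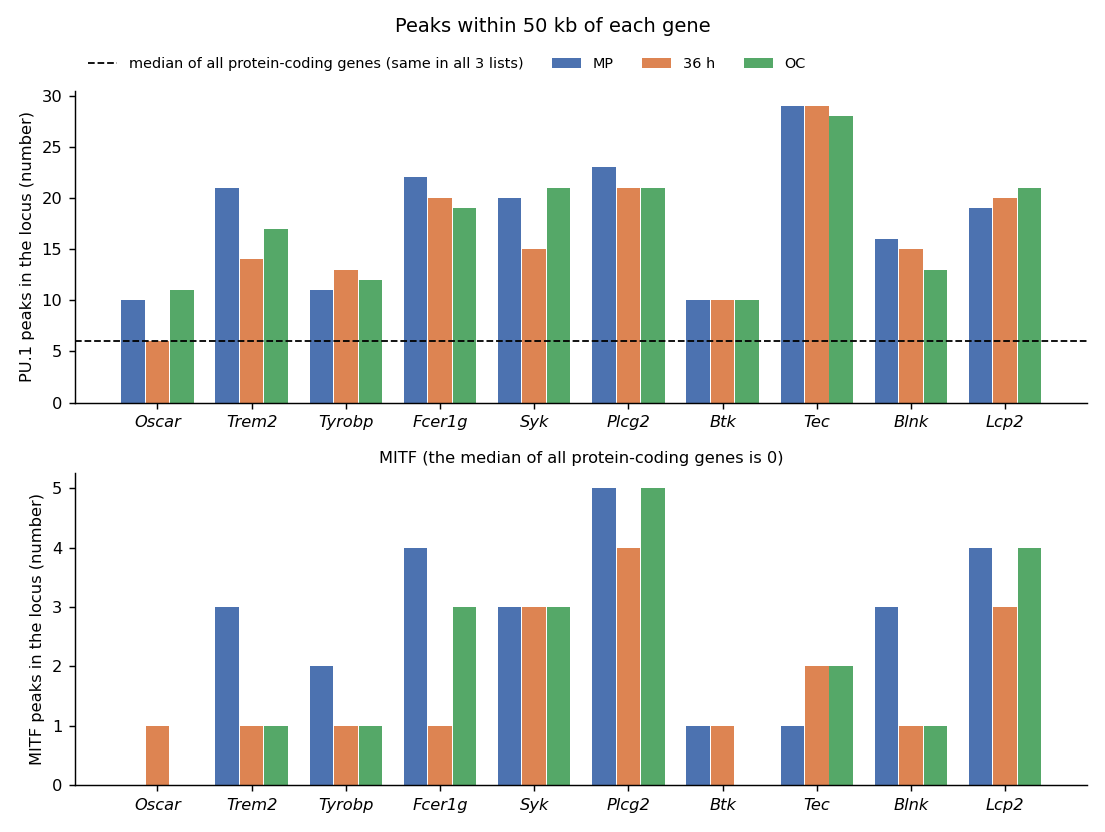
Number of PU.1 peaks (upper panel) and MITF peaks (lower panel) within 50 kb of each gene, 1 bar per list and 1 library per bar. All PU.1 bars except Oscar at 36 h, with 6 peaks, lie above the dashed median of 6 peaks over all protein-coding genes, and Plcg2, Lcp2 and Syk have 3 or more MITF peaks in every list.

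PU.1 peaks of these loci also scored higher than the peaks of the lists at large. Their median Peak Score was 30.7 in MPs, 31.0 at 36 h and 32.3 in OCs, against 23.9, 23.7 and 23.5 over all peaks. Among them 33 of 181, 34 of 163 and 34 of 173 were in the top 10% of their list, or 18.2%, 20.9% and 19.7% against 10.2%, 10.1% and 10.2% of all peaks. Of the 181 PU.1 peaks in MPs, 92 were in introns, 68 between genes and 21 in exons. Many windows hold other genes. In MPs the nearest protein-coding start belonged to the member for 102 of the 181 peaks. At 36 h it did for 87 of 163 and in OCs for 99 of 173. All peaks of the Tyrobp window, 40 over the 6 lists, also lay in the window of its neighbor Hcst. Hcst is the gene of the adaptor DAP10, and the window rule does not separate it from Tyrobp.

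The 10 loci held 222 PU.1 sites when overlapping peaks of the 3 lists were merged, and 130 of them (58.6%) were in all 3 lists, against 50.5% of all 102376 PU.1 sites. These shared sites had a median highest score of 51.2. Sites in 2 lists numbered 35 with a median of 19.2, and sites in 1 list numbered 57 with a median of 13.2. The median score was thus lower for sites missing from a list, but the ranges overlapped: the highest of the 57 scored 40.9 and the highest of the 35 scored 52.9. Of the sites in a single list 24 were found in MPs (10.8%), 16 at 36 h (7.21%) and 17 in OCs (7.66%), against 11.1%, 9.03% and 10.3% of all PU.1 sites, so none of these shares exceeded the background.

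The receptors differed from each other. OSCAR is a receptor of collagen on the osteoclast lineage, and its gene had the weakest PU.1 binding near a start, at a site in its intron 1.9 kb from the 5′ end with scores of 23.9 in MPs, 16.3 at 36 h and 27.9 in OCs. No MITF peak was found there. The highest PU.1 site of its window scored 167.2, 127.1 and 142.4 but lay 27.5 kb upstream, in an intron of Gm15927 with Cnot3 as nearest protein-coding gene. Its only MITF peak was at that site, at 36 h, with the lowest score of the list (9.7). TREM2 is a lipid-binding receptor of macrophages, microglia and osteoclasts. A PU.1 site in an exon 1.1 kb from its 5′ end scored 218.3, 189.2 and 182.1, and a MITF peak overlapped it in each list with 27.0, 32.1 and 20.6. A weaker PU.1 site lay at the 5′ end itself with 54.6, 59.1 and 67.5. At 30.3 and 22.0 kb upstream of Trem2, in the region of B430306N03Rik, MITF peaks of 11.4 and 10.4 were listed in MPs only.

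The adaptors also differed in how MITF was placed. At Fcer1g the highest PU.1 site, 362 bp upstream of the nearest start, scored 245.6 in MPs, 208.4 at 36 h and 210.0 in OCs, and MITF scored 41.6, 103.2 and 35.4 on the same site. It was the second highest MITF site of the 10 loci in every list. A site 49.1 kb upstream of Fcer1g, in an exon of Usp21, scored 143.3, 87.2 and 94.0 for PU.1 and had MITF peaks of 10.4 in MPs and 13.7 in OCs. At Tyrobp the site at the start scored 80.2, 107.9 and 111.6 for PU.1 and had no MITF peak in any list. A site 19.2 kb upstream of Tyrobp was higher, with 129.6, 165.6 and 170.3, and had MITF peaks of 11.4 in MPs and 9.7 at 36 h, both close to the lowest score of their lists. Tyrobp was the locus where the PU.1 scores in OCs lay most above MPs. Its 10 pairs of overlapping peaks had a median log2 change of 0.42 against the median of all pairs, with 6 above and 4 below 0, and none passed the test (the site at the start had a log2 change of 0.50, 95% interval −0.04 to 1.06, exact adjusted p = 0.707).

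Syk, the kinase that docks on the phosphorylated ITAM, had the strongest site of the set. The site 10.5 kb upstream of its 5′ end scored 371.9 in MPs, 335.5 at 36 h and 314.2 in OCs for PU.1. These scores ranked 9 of 76243, 12 of 71941 and 12 of 77072, and each was the highest PU.1 score on chromosome 13. MITF scored 57.1, 161.6 and 62.8 on it, which ranked 27, 49 and 15 in the MITF lists. A further MITF site lay at an internal start 13.7 kb into the gene, with MITF scores of 14.5, 27.3 and 16.0 on PU.1 scores of 165.5, 149.3 and 161.5. The last lay in an intron 32.0 kb into the gene, with 21.8, 32.1 and 11.4 on 208.1, 199.5 and 173.3. All 3 MITF sites of the Syk locus were in all 3 lists, and their nearest protein-coding gene was Syk. The site at the 5′ end of the gene was weak in comparison, with PU.1 scores of 34.1, 38.4 and 42.6 and no MITF peak.

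BTK and TEC are the Tec family kinases that act beside SYK. At Btk the highest site over the 3 lists lay 20 bp upstream of an annotated start and 0.4 kb inside the gene. Its PU.1 scores were 107.5, 87.2 and 110.1, and MITF scored 15.6 in MPs and 9.7 at 36 h, with no peak in OCs. At 36 h alone a site 17.6 kb upstream of Btk was higher for PU.1, with 88.7. At Tec the highest site lay 72.0 kb into this long gene, in an intron. It scored 274.6, 218.8 and 242.3 for PU.1, and MITF scored 11.4, 22.4 and 17.1 on it. The highest site near a Tec start, 0.3 kb upstream, scored 69.9, 51.7 and 64.6 without a MITF peak.

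BLNK and SLP-76 are scaffolds that hold SYK substrates together. The highest site of Blnk lay 4.2 kb upstream with PU.1 scores of 272.9, 227.6 and 199.7, and MITF was listed there in MPs only, with 12.5. The Blnk site with MITF in all lists was instead a moderate PU.1 site in an intron 21.5 kb into the gene, with PU.1 scores of 71.6, 84.3 and 70.5 and MITF scores of 15.6, 24.3 and 18.3. Of all the sites bound by MITF in the 3 lists this one had the lowest PU.1 scores. Lcp2 had 4 PU.1 sites that reached 200 in a list. The highest in MPs and at 36 h, 38.5 kb upstream, scored 300.2, 233.5 and 208.5, and MITF scored 24.9, 61.3 and 18.3 on it, but its nearest protein-coding gene was Kcnip1. The site 15.4 kb upstream scored 225.2, 202.5 and 198.2, and MITF 19.7, 87.6 and 29.7. The site 25.6 kb into Lcp2 was the highest in OCs, with PU.1 scores of 226.9, 201.0 and 210.0, and had MITF peaks of 10.4 in MPs and 14.8 in OCs. One at 19.9 kb had MITF peaks of 14.5 in MPs and 9.7 at 36 h. At the start of Lcp2 PU.1 scored 102.3, 88.7 and 98.4 with no MITF peak.

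PLCγ2 is the enzyme that makes the calcium-releasing messenger. Plcg2 had the largest number of MITF peaks, with 5 in MPs, 4 at 36 h and 5 in OCs. Of all protein-coding genes 0.514%, 0.496% and 0.25% have as many. Its window is also the widest of the 10, at 236.8 kb. Per 100 kb it had 2.11, 1.69 and 2.11 MITF peaks, densities that 2.55%, 2.81% and 1.55% of genes reach. Lcp2 was denser in each list, with 2.75, 2.06 and 2.75. The highest PU.1 site of Plcg2 over the 3 lists, 3.3 kb upstream, scored 196.2, 177.4 and 205.6, with MITF at 15.6, 10.7 and 10.3. A site 40.6 kb into the gene scored 203.0, 170.0 and 199.7, with MITF at 23.9, 39.9 and 13.7. MITF was also in all 3 lists 16.3 kb upstream of Plcg2, with 13.5, 9.7 and 9.1, and in the first 2 lists at 28.1 kb into the gene, with 15.6 and 10.7. Within 3 kb of the Plcg2 start the highest PU.1 site scored 49.5, 63.6 and 54.3 and had no MITF peak.

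**Figure D2:**
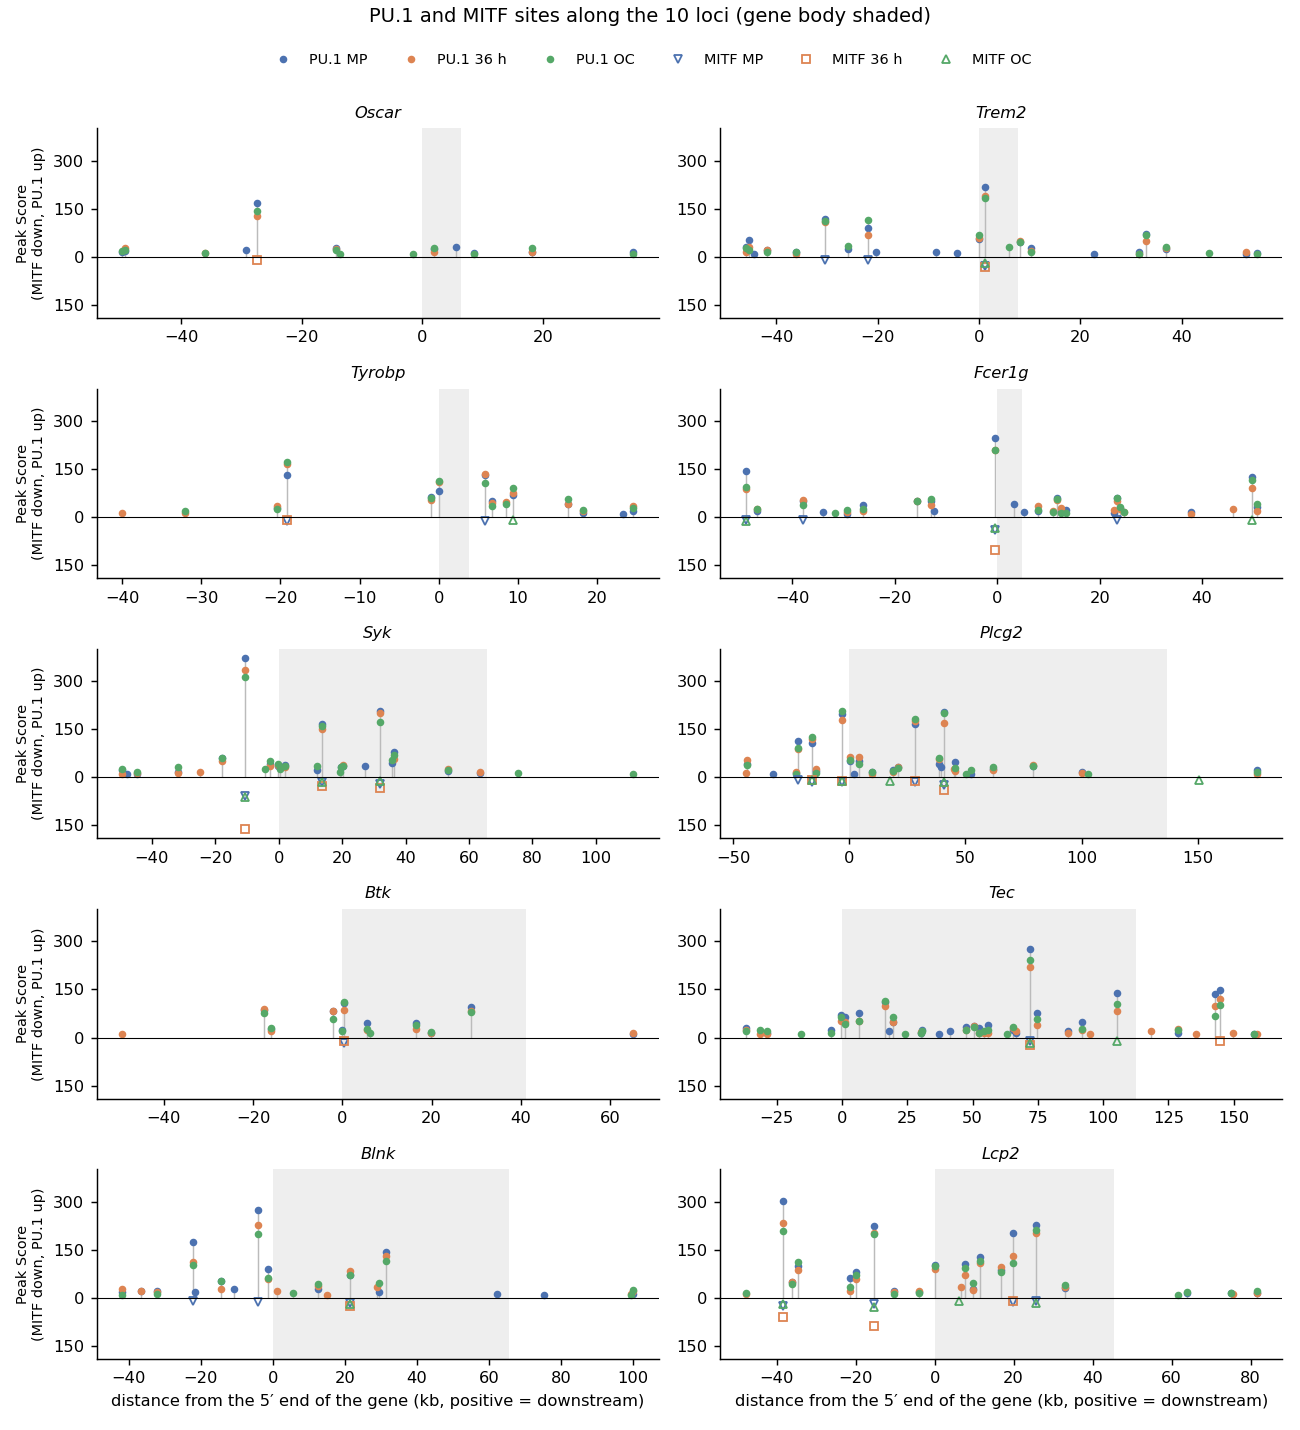
Peak Scores of every PU.1 site (points, upward) and MITF site (open symbols, downward) against distance from the 5′ end of each gene in kb, with the gene body shaded and colors for the 3 conditions. The highest PU.1 site of a locus is near the 5′ end at Trem2, Fcer1g and Btk and lies kilobases away at the other genes, and MITF symbols sit under high PU.1 sites.

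Within 3 kb of an annotated start, a PU.1 peak was found at all 10 genes in each list, and a MITF peak at 4 genes in MPs and at 36 h (Trem2, Fcer1g, Syk and Btk) and at 3 in OCs (the same without Btk). Of the 34 MITF sites of the loci, 18 were in introns, 11 between genes and 5 in exons. The nearest protein-coding start belonged to the member for 20 of the 34.

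MITF peaks were found at more of these genes than of genes in general. A MITF peak lay at 9 of the 10 genes in MPs, at all 10 at 36 h and at 8 in OCs, against 32.1%, 24.0% and 28.8% of all protein-coding genes. These shares take no account of window width. Per 100 kb of window the medians were 1.87, 0.947 and 0.952 MITF peaks, against 0 over all protein-coding genes. At Oscar and Tyrobp the only 36 h peak scored 9.7, the lowest of the list. Nearly all MITF peaks of the loci lay on PU.1. All 26 MITF peaks in MPs and all 18 at 36 h overlapped a PU.1 peak of the same condition, as did 17 of 20 in OCs (85.0%, 95% Wilson interval 64.0% to 94.8%), against 97.9%, 93.8% and 93.3% of the MITF lists. The 3 without PU.1 were at 17.3 and 150.4 kb from the 5′ end of Plcg2 and 6.1 kb into Lcp2, with 9, 8 and 8 tags, and the lowest MITF OC peak had 8. Of the 34 MITF sites, 31 lay on a PU.1 site that was in all 3 PU.1 lists.

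Read from the side of PU.1, 26 of 181 peaks in MPs (14.4%, interval 10.0% to 20.2%), 18 of 163 at 36 h (11.04%, 7.10% to 16.8%) and 17 of 173 in OCs (9.83%, 6.23% to 15.2%) overlapped a MITF peak, against 6.95%, 4.62% and 5.38% of the lists. Each interval counts the peaks of 1 library, and 130 of the 222 PU.1 sites were in all 3 lists. The intervals therefore do not compare the conditions. Similar shares, of 12.5%, 9.69% and 9.11%, were found at the 24 further pathway genes described below, so the excess is not particular to the 10 loci. The PU.1 score moved with the share of peaks that carried MITF, and the loci have more high-scoring PU.1 peaks. In the lower 50% of the scores 0 of 69, 0 of 62 and 0 of 60 PU.1 peaks of the loci carried MITF, against 0.0483%, 0.0251% and 0.0538% of the lists, so 0 is near the background. In the class from 50% to 90% there were 4 of 79, 1 of 67 and 2 of 79, against 3.26%, 1.83% and 2.72%. In the top 10% 22 of 33 did in MPs, 17 of 34 at 36 h and 15 of 34 in OCs, against 54.6%, 38.2% and 41.3% of all PU.1 peaks of that class, and the part of the score in the share was not tested further.

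**Figure D3:**
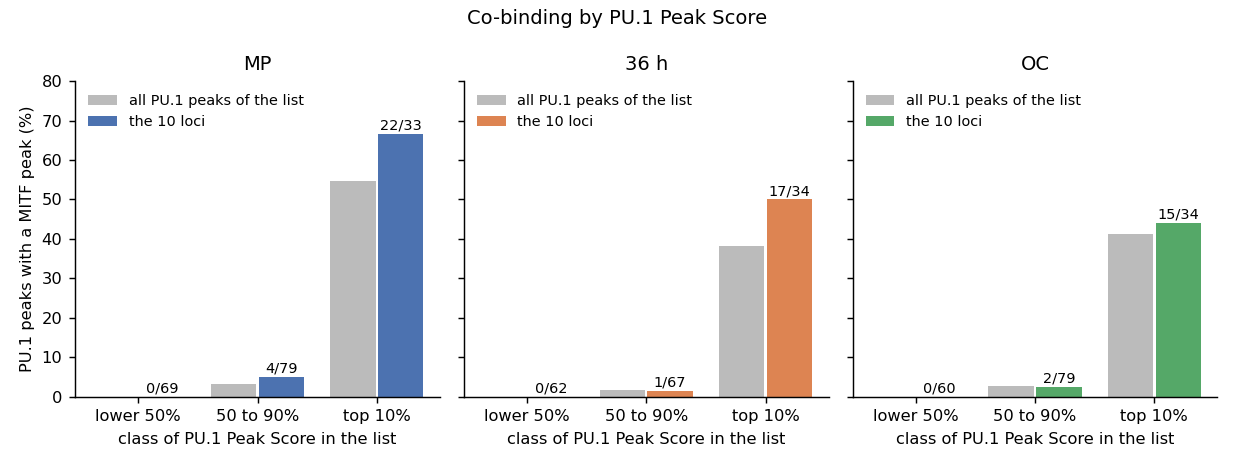
Percent of PU.1 peaks that overlap a MITF peak of the same condition, by class of PU.1 Peak Score, for all peaks of a list (gray) and for the 10 loci (colored, with counts). In MPs 22 of the 33 top-class peaks of the loci carried MITF against 54.6% in the list, and no peak of the lower class did.

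The motifs of the MITF peaks at these loci were counted beside those of the lists, and the differences in share were not tested. Within 100 bp of the center, GAGGAA was present in 23 of 26 MITF peaks in MPs (88.5%), 16 of 18 at 36 h (88.9%) and 15 of 20 in OCs (75.0%), against 69.8%, 70.7% and 70% of the MITF lists. CANNTG was present in 11 of 26 (42.3%), 7 of 18 (38.9%) and 10 of 20 (50.0%), against 63.6%, 60.6% and 61.7%. The palindromic E-box CACGTG, one form of CANNTG, was in none of these MITF peaks, and it is in 2.94%, 2.88% and 2.43% of the lists. In PU.1 peaks of the loci GAGGAA was present in 55.8%, 60.1% and 54.3%, close to the 57.8%, 58.7% and 58.6% of the lists. CATGTG, another form of CANNTG, was in 3 of 26 (11.5%), 1 of 18 (5.56%) and 1 of 20 (5%) of the MITF peaks. In the MITF lists it was in 14.4%, 12.8% and 13.4%. Other sequences that either factor binds were not searched, and absence of these letters shows nothing about binding.

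Scores of overlapping peaks of 2 conditions were then compared by an exact binomial test of their tags against the median ratio of all such pairs, with Benjamini-Hochberg adjustment over all pairs of the 2 lists. A pair was called at an adjusted p under 0.05 and at least a 2-fold change. For PU.1 no pair of the loci was called. Between 36 h and MPs 0 of 138 pairs were called, where 0.341% of all pairs were called higher and 0.712% lower. Between OCs and 36 h 0 of 138 were called, where 0.0224% were higher and 0.0483% lower. Between OCs and MPs 0 of 147 were called, where 0.0682% were higher and 0.0882% lower. With so few calls in the lists, 0 is near the background. At an unadjusted p under 0.05 there were 12, 7 and 9 such pairs of the loci, against 10.9%, 6.45% and 7.84% of all pairs. The median log2 changes of the loci were −0.08, 0.00 and −0.06, where the median of all pairs is 0 by construction. The 3 comparisons share libraries.

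The site 19.9 kb into Lcp2 had the lowest adjusted p of the PU.1 pairs of the loci. Its score was 201.3 in MPs, 130.1 at 36 h and 108.7 in OCs, from 118 tags in MPs and 74 in OCs. The log2 change from MPs to OCs was −0.87 (95% interval −1.31 to −0.43, exact adjusted p = 0.0349), which is past the p limit and under the 2-fold limit. Another site lay 142.9 kb from the 5′ end of Tec, beyond the gene and in an intron of Txk, its nearest protein-coding gene. It had 136.5 in MPs and 67.5 in OCs, with a log2 change of −0.99 (−1.55 to −0.45, exact adjusted p = 0.0660). A site 21.5 kb upstream of Lcp2 had 61.4 in MPs and 20.7 at 36 h, with a log2 change of −1.45 (−2.45 to −0.52, exact adjusted p = 0.0622). These 3 are below 2-fold or above the p limit and are given as values.

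The 3 largest gains between MPs and OCs were at sites with 6 to 10 tags in MPs, which leaves wide intervals. They were at 29.4 kb into Blnk, with scores of 17.1 and 47.0 (log2 change 1.49, exact adjusted p = 0.235), at 29.4 kb upstream of Fcer1g, with 10.2 and 23.5 (1.22, exact adjusted p = 0.739), and at 52.4 kb into Plcg2, with 10.2 and 22.0 (1.13, exact adjusted p = 0.816). The 3 largest losses covered a range of scores in MPs. The largest was at 45.3 kb upstream of Trem2, with 51.2 and 20.6 (−1.29, exact adjusted p = 0.299). The next was at 52.5 kb into Tec, with 30.7 and 14.7 (−1.04, exact adjusted p = 0.739). The last was the site in Txk, 142.9 kb from the 5′ end of Tec, with 136.5 and 67.5. At the strong Syk site the log2 change was −0.22 (−0.50 to 0.06, exact adjusted p = 0.812), so a change of 2-fold lay outside its counting interval.

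**Figure D4:**
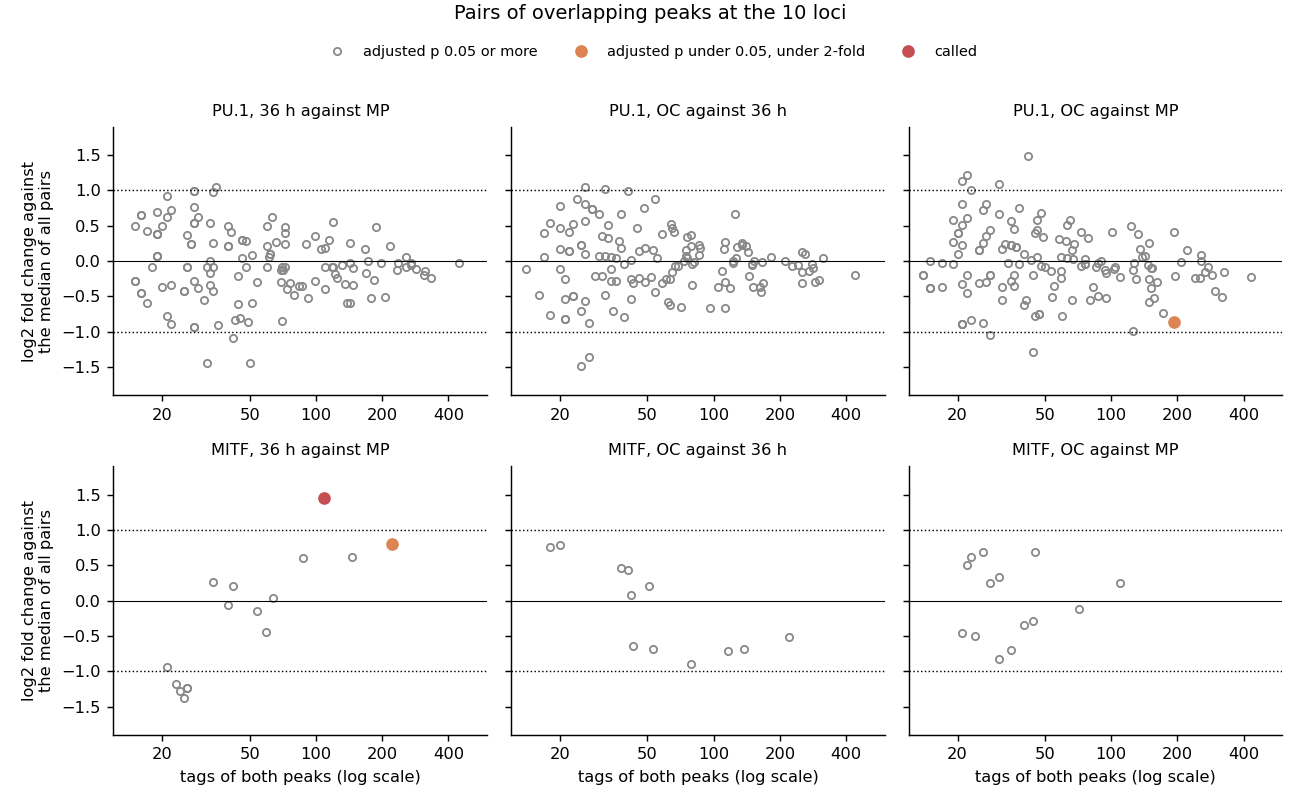
Log2 fold change of the tags of overlapping peaks at the 10 loci against the tags of both peaks (log scale), relative to the median of all pairs of the lists, for PU.1 (upper row) and MITF (lower row), with dotted lines at 2-fold. The only called pair is Lcp2 for MITF at 36 h against MPs (1.45), and the PU.1 pairs narrow toward 0 as tags rise.

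For MITF the pairs were few, and the 36 h list stood apart. Between 36 h and MPs 1 of 16 pairs was called higher and 0 lower, where 9.80% of all pairs were higher and 5.38% lower, so the share is near the background. Between OCs and 36 h 0 of 12 were called, where 2.98% were higher and 6.68% lower. Between OCs and MPs 0 of 14 were called, where 0% were called in either direction. At an unadjusted p under 0.05 there were 7 of 16, 4 of 12 and 0 of 14, against 29.6%, 25.2% and 3.23% of all pairs. The direction of the calls rests on the scaling. Against the ratio of library sizes in place of the median ratio, 823 pairs of the lists were higher and 20 lower at 36 h against MPs, in place of 246 and 135, and 4 higher and 894 lower in OCs against 36 h, in place of 70 and 157.

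The called pair was the Lcp2 site 15.4 kb upstream, where MITF rose from 19 tags in MPs to 90 at 36 h. The log2 change was 1.45 (95% interval 0.72 to 2.24, exact adjusted p = 0.000371), or 2.73-fold beyond the median of all pairs. In OCs the site had 26 tags, and the log2 change from 36 h was −0.71 (−1.40 to −0.07, exact adjusted p = 0.134). At the Syk site 10.5 kb upstream the tags were 55, 166 and 55, and the change from MPs to 36 h was 0.80 (0.35 to 1.26, exact adjusted p = 0.00367), past the p limit and under 2-fold. At the Fcer1g site they were 40, 106 and 31, with 0.61 (0.07 to 1.17, exact adjusted p = 0.104). From MPs to OCs these 3 sites had log2 changes of 0.69, 0.24 and −0.13, each with an adjusted p of 1.

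The width of the 36 h peaks moved with these values. The MITF 36 h peaks at Lcp2 (15.4 kb upstream), Syk and Fcer1g were 209, 223 and 246 bp wide against 150 bp in MPs and OCs. Over all pairs the median ratio of tags at 36 h to MPs was 2.23 where the 36 h peak was wider than 150 bp and 0.909 where it was 150 bp wide. Compared only with the 1724 wider pairs, the Lcp2 site had a log2 change of 1.09 (exact adjusted p = 0.0272) and was still called. The Syk site was not. The Lcp2 site was thus 1 called of 10 wider pairs of the loci, where 6.44% of all wider pairs were called, near the background. Among the 12 sites of the loci with MITF in all 3 lists, the 36 h score was the highest of the 3 conditions at all 10 with a wider 36 h peak and at neither of the 2 with a 150 bp peak, both at Plcg2. In the whole lists the 36 h score was the highest at 96.9% of the 1502 wider peaks and at 10.9% of the 503 peaks of 150 bp. Whether width, the calling of the list or binding sets these scores was not tested.

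**Figure D5:**
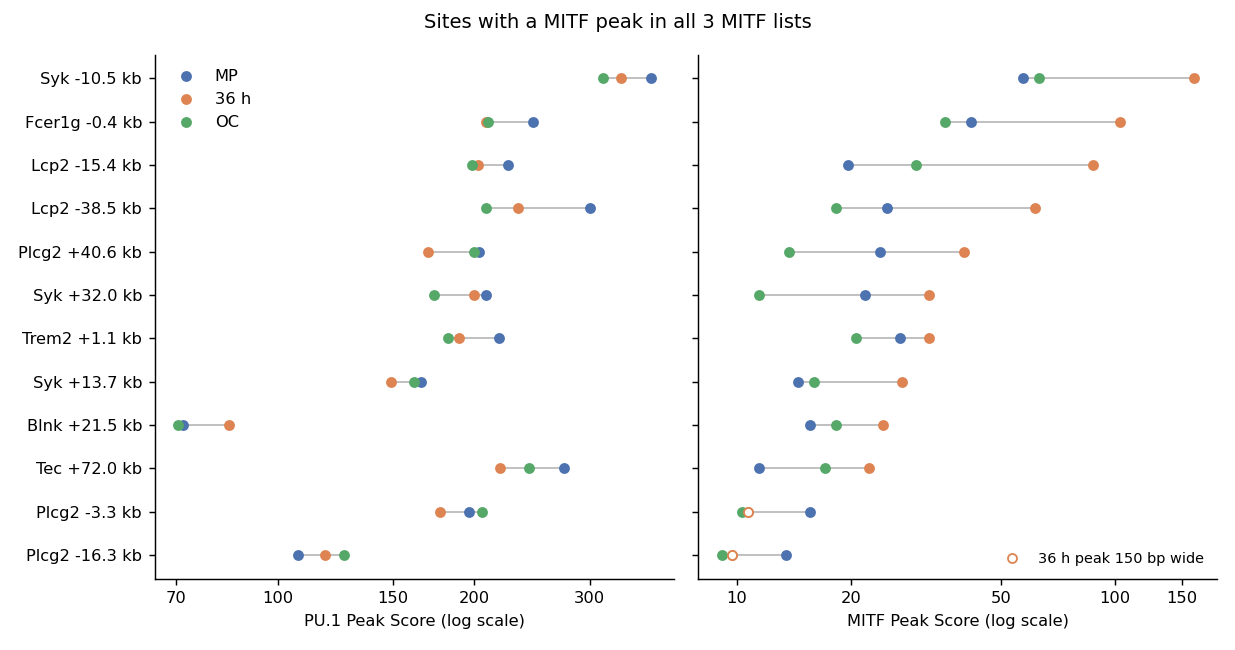
PU.1 (left) and MITF (right) Peak Scores (log scales) in MPs, at 36 h and in OCs at the 12 sites with a MITF peak in all 3 MITF lists, named by gene and distance from its 5′ end. The MITF score at 36 h (orange) is the highest at the 10 sites with a 36 h peak wider than 150 bp and not at the 2 Plcg2 sites with a 150 bp peak (open symbols), while PU.1 at the Syk site runs from 371.9 in MPs to 314.2 in OCs.

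MITF sites found in all 3 lists had the highest median score. There were 12 of 34 (35.3%, against 26.1% of all 7693 MITF sites), with a median highest score of 32.1. The 6 sites in 2 lists had a median of 14.7, and the 16 in 1 list had a median of 10.3 and none above 12.5. The classes overlapped, since the Plcg2 site 16.3 kb upstream was in all 3 lists with at most 13.5 and the Btk site was in 2 with 15.6. In MPs 8 sites were found alone (23.5%), at 36 h 2 (5.88%) and in OCs 6 (17.6%), close to the 26.8%, 8.93% and 16.3% of all MITF sites.

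The rest of the pathway was read from 24 further genes, among them other receptors, Src family kinases and inhibitory phosphatases. They include Hcst, whose 40 peaks over the 6 lists are those of Tyrobp, and Pirb, which shares 5 peaks with Oscar. The 24 are therefore not fully separate from the 10 genes. All 24 had PU.1 peaks in each list, with medians of 19, 16.5 and 18 per locus, close to the 19.5, 15 and 18 of the 10 genes. Per 100 kb of window their medians were 11.2, 10.1 and 11.4, against 11.3, 10.8 and 12.1 for the 10 genes. The share of their PU.1 peaks with MITF, given above, was also close to that of the 10 loci. MITF peaks were at 22, 19 and 18 of the 24. Most MITF peaks over the 3 lists were at Inpp5d, which encodes the phosphatase SHIP1 (17), at Grb2, an adaptor (16), and at Lyn, a Src family kinase (15). Of their PU.1 pairs 2 of 360 were called higher at 36 h against MPs (Grb2 and Gab2) and none lower. Over all pairs 0.341% were called higher and 0.712% lower. Between OCs and 36 h 0 of 366 were called, where 0.0224% of all pairs were higher and 0.0483% lower. Between OCs and MPs 0 of 381 were called, where 0.0682% were higher and 0.0882% lower. Of their MITF pairs 3 of 34 were called higher and 2 lower at 36 h against MPs. Over all MITF pairs 9.8% were called higher and 5.38% lower. In OCs against 36 h 1 of 28 was called higher and 2 lower, where 2.98% of all pairs were higher and 6.68% lower. In OCs against MPs 0 of 33 were called, where 0% were called in either direction. These counts of MITF pairs are near the background.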

How the data were processed

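Per the labels and the methods of the study, reads were mapped to mm9 with Bowtie2 and peaks were called with HOMER. CASAVA 1.8 is also named in the submitters' processing notes. Versions of Bowtie2 and HOMER and the calling settings are not given in the sources used here. The authors deposited 1 list per library, and its Peak Score is a normalized tag score that HOMER scales to a common library size. The lists also hold the authors' annotation of each peak, which was not used.

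Tags were recovered by dividing each Peak Score by the worth of 1 tag in its list. The deposited scores are rounded to 0.1. Gene positions were taken from GENCODE for mm9, in which Syk is listed as Sykb. Peaks overlapping by at least 1 bp were paired, and pairs were compared with a two-sided exact binomial test, adjusted by Benjamini-Hochberg over all pairs of the 2 lists. Shares have 95% Wilson intervals, and intervals of fold changes are exact binomial. Both cover counting error only. The binomial test was checked on tags simulated from the PU.1 pairs of MPs and OCs, with counting noise only. That check did not cover MITF, the 36 h lists or variation between libraries.

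The 10 genes, the list of 24 further genes and the tests were chosen with earlier results of these data known. Named were all 10 genes with their counts, the highest PU.1 site of each locus and near a start, sites with MITF in at least 2 lists, pairs past the test, the 3 largest PU.1 changes each way between MPs and OCs, and the 3 further genes with most MITF peaks. Other sites are named for a stated feature after their values had been seen. Alternatives were scores of at least 2 times the lowest, windows of 10 and 100 kb, nearest gene, removal of peaks on IgG, other overlaps, the ratio of library sizes and no fold limit. Python 3.11.15, numpy 2.4.6, scipy 1.17.1, pysam 0.24.0, samtools 1.23.1 and matplotlib 3.10.9 were used. Sequences of the other sites chosen by the same rule are not reported here.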

Additional observations from a re-analysis of the deposited data

How the results depend on the processing

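No paired analysis was possible because each condition has 1 library and the labels give no replicate numbers, and for the same reason no library could be left out. Of 144 values recomputed under another setting, 114 stayed within their interval or within 1.5 times the count and 30 moved. With scores of at least 2 times the lowest, MITF peaks of the loci fell to 7 in MPs, 10 at 36 h and 6 in OCs, genes with a MITF peak near a start in MPs to 2, and the share of PU.1 peaks with MITF was 5.65% in MPs and 4.84% in OCs, while all MITF OC peaks (100%) overlapped PU.1. A window of 10 kb gave 98, 83 and 94 PU.1 peaks and 14, 11 and 13 MITF peaks, from its smaller span. Peaks nearest to the member itself numbered 102, 87 and 99 for PU.1, of which 17.2% at 36 h carried MITF, and 55% of their MITF sites were in all 3 lists. Within 50 bp of the center GAGGAA was in 44.8%, 49.7% and 43.9% of PU.1 peaks, and CANNTG in 23.1% of MITF peaks in MPs and 15% in OCs.

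The ratio of library sizes in place of the median ratio raised the called pairs of the loci for MITF from 1 to 4, all higher, at 36 h against MPs (Syk 10.5 kb upstream, Fcer1g and 2 Lcp2 sites) and from 0 to 6, all lower, in OCs against 36 h. Over the whole lists it raised the calls from 381 (246 higher, 135 lower) to 843 (823 and 20, 33.6% of pairs) and from 227 (70 and 157) to 898 (4 and 894, 38.2% of pairs). For PU.1 it called 1 of 138 pairs lower at 36 h against MPs (Lcp2, 21.5 kb upstream), where 1.78% of all pairs were called. It called 1 of 147 lower in OCs against MPs (142.9 kb from the 5′ end of Tec, in Txk), where 0.188% were called. With no fold limit 1 of 147 PU.1 pairs in OCs against MPs (Lcp2, 19.9 kb) passed, where 0.186% of all pairs did. Of the 16 MITF pairs at 36 h against MPs 2 passed, where 17.1% of all pairs did. Comparing MITF within classes of 36 h peak width was added after the data had been seen. Within wider peaks 1 of 10 pairs of the loci was called at 36 h against MPs, where 6.44% of all pairs were called. Within peaks of 150 bp 0 pairs of the loci were called, where 0 of all 785 pairs were called. No call of the loci reversed. Few tags limit most MITF sites. Where a site of the loci had at most 15 MITF tags in MPs, the 95% interval of its log2 changes from MPs was more than 2 wide.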
